A study of Drosophila melanogaster with 6 samples.

Results

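The small heat shock proteins are chaperones built around an alpha-crystallin domain. They hold unfolding proteins in a soluble state without using ATP, and pass them on to the Hsp70 machinery for refolding or to degradation. In Drosophila their genes are switched on by heat shock factor (Hsf) after heat and other protein-damaging stress, and several are also active in unstressed tissue, in development, in response to ecdysone and with age. The 7 genes described here, Hsp22, Hsp23, Hsp26, Hsp27, Hsp67Ba, Hsp67Bc and l(2)efl, were chosen by symbol from the 17807 genes of the count table, and selected on the difference in their CPM between the genotypes, which was already known. Their values in that comparison are therefore a description. Where members are counted as called or as under a p threshold, this too is a description and is not read as a test.

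RNA was measured in heads of male flies in 6 libraries, 3 from control and 3 from pum knockdown (pum kd) flies, with 10 heads pooled in each. For both genotypes the paper lists w1118/y1,sc*,v1;sev21, which names a pair of X chromosomes, and it does not say which X the males carried. Both carried the driver esg-Gal4 with UAS-2xYFP and the Gal80 transgenes Su(H)GBE-Gal80 and tub-Gal80ts. They differed in the RNAi transgene inserted at attP2. Control flies carried UAS-mCherryRNAi (VALIUM20), which targets a protein that flies lack, and pum kd flies carried UAS-pumRNAi (TRiP.HMS01564). The driver is active in stem cells of the intestine and in the corpus allatum, an endocrine gland, and the libraries are of whole heads. The paper cites work in which esg-Gal4 was also active in a few adult brain neurons. It leaves the extent under these conditions to future study. All flies were reared at 18 °C, and the transgenes were expressed at 29 °C. Flies were then pooled in tubes, left for 30 minutes at 29 °C and flash-frozen, so that any difference in this handling between the genotypes cannot be told apart from genotype.

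Gene counts summed to between 33258537 and 39377789 per library. Levels are given as CPM, the counts of a gene relative to the TMM-scaled size of its library. The precision given by these counts covers counting error at most. No molecular identifiers are named in the sources used here, so copies of the same molecule may have been counted more than once. Of all genes, 10696 had enough counts to be tested with edgeR's quasi-likelihood test, and 11 of these were called at an adjusted p under 0.05 with a log2 fold change of at least 1 in size (0.103%), 9 of them higher in pum kd heads (0.0841%). The targeted gene, pum, overlapped between the genotypes, at 168 to 346 CPM in control and 176 to 228 CPM in pum kd heads. In the paper's methods, the flies of a genotype were pooled in tubes and frozen before heads were collected for each replicate. The libraries of a genotype may therefore be draws from a common pool of flies. The paper calls them biological replicates, and the labels do not say whether their flies came from separate cultures. The p-values thus measure the spread between these libraries, which may be technical in part. They may not cover the spread between cultures. In bulk heads, a change in the number of cells of a type and a change of RNA per cell cannot be told apart.

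Among the 7 genes, 6 had counts and passed the filter, and Hsp22 had 0 counts in all 6 libraries. Hsp22 (FBgn0001223), whose protein works in mitochondria, lies on the plus strand at 3L:9372931-9374964 (dm6), and each of its 1900 annotated exonic bases is shared on that strand with CG4456 (also named Hsp67Bb), which was at 0 as well. Of 491 genes in the table whose exons lie wholly within another gene's exons on the same strand, 488 had 0 counts (99.4%). Where the sharing was wholly with a gene on the other strand, 37 of 141 genes had 0 counts (26.2%). Reads that fitted more than 1 gene made up 2.61% to 2.90% of a library and were set aside by the counting without a gene name. The 0 of Hsp22 is thus the value of a gene that this counting could not see, and neither a level nor an upper limit can be drawn from it.

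The other members of the 67B cluster lie with Hsp22 within 14184 bases of chromosome 3L. In the order along the chromosome they are Hsp67Bc (FBgn0001229, 3L:9371511-9372497), Hsp26 (FBgn0001225, 3L:9376418-9377427), Hsp67Ba (FBgn0001227, 3L:9377802-9379534), Hsp23 (FBgn0001224, 3L:9381882-9382765) and Hsp27 (FBgn0001226, 3L:9384063-9385694). Each of these 5 genes has a single exon, with the first 3 on the minus strand and Hsp23 and Hsp27 on the plus strand. The gene l(2)efl (FBgn0011296), which encodes a protein close to the vertebrate alpha-B crystallin, lies apart at 2R:23684651-23685543, on the minus strand, with 3 exons. None of the 6 shares exonic bases with a gene on its own strand, and 1316 of the 1733 exonic bases of Hsp67Ba lie opposite the antisense gene asRNA:CR43481.

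Hsp26, a cytosolic chaperone that is also made in the germ line of unstressed flies, had the largest difference between the genotypes of the 6. Control replicates 1, 2 and 3 had 28.5, 53.1 and 45.5 CPM, and the pum kd replicates, in that order as throughout, had 353, 118 and 182 CPM. The lowest pum kd library was 2.23 times the highest control library. The means were 42.4 ± 12.6 CPM for control and 218 ± 121 CPM for pum kd (SD, n = 3 each), 5.14 times as high. On the log2 scale the fold change was 2.36, with a standard error of 0.38.

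Hsp23, the other abundant cytosolic member of the cluster, followed the same order of libraries within pum kd heads. Control heads had 36.7, 55.6 and 43.4 CPM and pum kd heads 223, 87.2 and 129 CPM. No pum kd library reached down to the control range. The means were 45.2 ± 9.58 and 147 ± 69.8 CPM (SD, n = 3 each), a ratio of 3.24, with a log2 fold change of 1.70 (standard error 0.31).

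Hsp27, whose protein is found largely in the nucleus, was the least abundant of the 3. Control heads had 8.73, 6.42 and 7.59 CPM and pum kd heads 32.6, 13.3 and 14.9 CPM. The groups were again apart, and pum kd replicate 1 stood well above the other pum kd libraries. The log2 fold change was 1.42 (standard error 0.34), from means of 7.58 ± 1.15 and 20.3 ± 10.7 CPM (SD, n = 3 each).

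**Figure D1:**
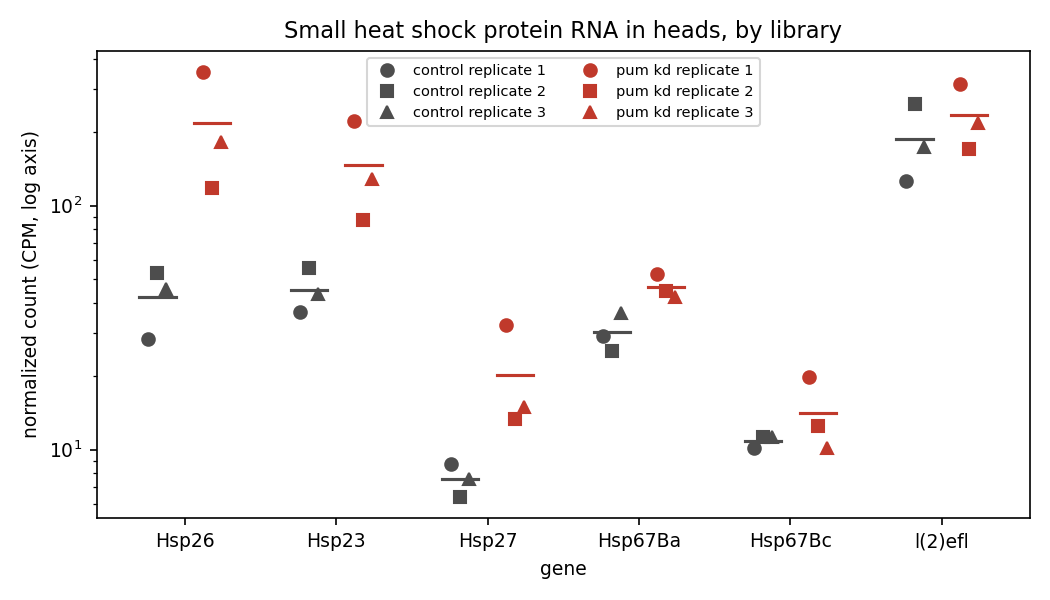
Normalized count (CPM, log axis) of the 6 genes with counts in each library. Grey symbols are control and red symbols pum kd libraries, the symbol shape gives the replicate, and the short lines are the means of 3. Hsp26, Hsp23, Hsp27 and Hsp67Ba do not overlap between the genotypes, Hsp67Bc and l(2)efl do, and pum kd replicate 1 is the highest library for all 6 genes.

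Hsp67Ba, a larger member of the cluster, differed less between the genotypes and was more even among pum kd libraries. Its levels were 29.3, 25.3 and 36.3 CPM in control heads and 52.6, 44.7 and 42.1 CPM in pum kd heads. The groups did not overlap, though the gap was narrow, with the lowest pum kd library 1.16 times the highest control library. The means were 30.3 ± 5.59 and 46.5 ± 5.46 CPM (SD, n = 3 each), with a log2 fold change of 0.62 (standard error 0.19). The antisense gene opposite it had means of 2.55 ± 0.870 CPM for control and 2.95 ± 0.267 CPM for pum kd (SD, n = 3 each), and these groups overlapped.

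Hsp67Bc is the Drosophila counterpart of the human chaperone HSPB8 and works with Starvin, a BAG-domain co-chaperone, in clearing misfolded proteins by autophagy. Control heads had 10.2, 11.2 and 11.2 CPM and pum kd heads 19.8, 12.5 and 10.2 CPM. A single pum kd library was clearly above the control range, and the groups overlapped. The log2 fold change of 0.38 (standard error 0.27) became 0.10 without pum kd replicate 1. The Starvin gene, stv, was at 230, 191 and 198 CPM in control and 265, 205 and 283 CPM in pum kd heads, also overlapping, and was not called (log2 fold change 0.28, adjusted p = 0.993 by edgeR with Benjamini-Hochberg adjustment).

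In Drosophila, l(2)efl is expressed in muscle without heat shock, and it is a known target of the transcription factor FOXO. It was the most abundant of the 6 per base of exon and the most variable among control libraries. Its levels were 126, 262 and 174 CPM in control heads and 315, 171 and 218 CPM in pum kd heads. Control replicate 2 lay above 2 of the 3 pum kd libraries. The log2 fold change was 0.33 (standard error 0.29), and it moved between 0.10 without pum kd replicate 1 and 0.67 without control replicate 2.

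Over the 6 genes the median log2 fold change was 1.02, against -0.03 over all genes tested. In edgeR's fit 0 of the 6 genes tested were called, where 0.103% of all genes tested were called, and 4 (Hsp23, Hsp26, Hsp27 and Hsp67Ba) had an unadjusted p under 0.05, where 4.95% of all genes tested did. DESeq2 called Hsp23, Hsp26 and Hsp27, among 64 genes in all (0.598%). In 4 of the 6, the lowest pum kd library exceeded the highest control library, which held for 5.36% of all genes tested, and the reverse, which held for 4.95% of all genes tested, was seen in none. Because the genes were chosen with this comparison known, these counts describe the choice and nothing further is read from them. Without control replicate 2, edgeR called Hsp23 and Hsp26, among 30 genes in all (0.269%), and with any other library left out it called 0 members.

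**Figure D2:**
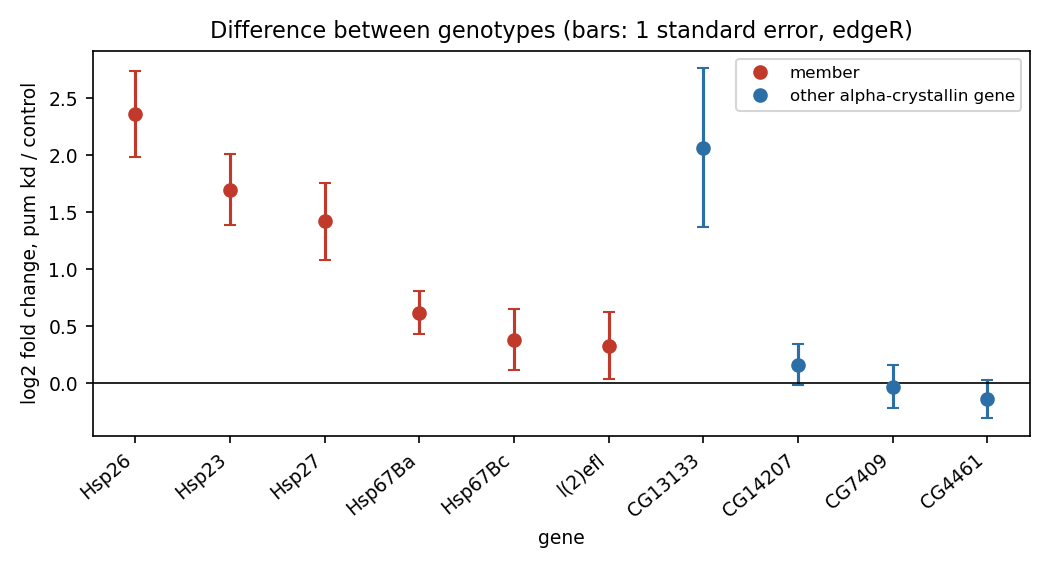
Log2 fold change, pum kd over control, of the 6 members with counts (red) and of the other alpha-crystallin genes (blue), with bars of 1 standard error from edgeR. The values run from 2.36 for Hsp26 to 0.33 for l(2)efl among the members, and 3 of the 4 other genes lie between -0.14 and 0.16.

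The difference was uneven among the pum kd libraries. Pum kd replicate 1 was the highest of all 6 libraries for each of the 6 genes, and pum kd replicate 2 was the lowest pum kd library for 4 of them. For Hsp26, pum kd replicates 1, 2 and 3 were 8.33, 2.79 and 4.30 times the control mean. For Hsp23 the corresponding values were 4.94, 1.93 and 2.86 times, and for Hsp27 4.30, 1.76 and 1.97 times. The coefficient of variation within pum kd heads reached 55.8% (Hsp26), while that within control heads reached 36.9% (l(2)efl). Without pum kd replicate 1 the log2 fold changes were 1.87 for Hsp26, 1.30 for Hsp23 and 0.94 for Hsp27.

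Batches are named neither in the labels nor in the study's text. The authors' normalized values, made with ComBat-seq, were given back in full by a division that puts control replicates 1 and 2 with pum kd replicate 1, and control replicate 3 with pum kd replicates 2 and 3. Within the first of these sets, Hsp26 was 8.65 times, Hsp23 4.84 times and Hsp27 4.30 times as high in the pum kd library as in the mean of the control libraries. In the second, the ratios to the single control library were 3.30 for Hsp26, 2.49 for Hsp23 and 1.86 for Hsp27. All 3 genes were thus higher within both sets. The ratios of Hsp67Ba were 1.93 and 1.20, those of Hsp67Bc 1.85 and 1.01, and those of l(2)efl 1.63 and 1.12, in the same order. Since each set has a single library of a genotype, no test was made within it. With the division as a term in edgeR's fit, the log2 fold changes were 2.42 for Hsp26 (standard error 0.36), 1.80 for Hsp23 (0.28) and 1.51 for Hsp27 (0.30).

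Summed over the 6 genes, the level was 239, 414 and 318 CPM in control heads and 997, 447 and 597 CPM in pum kd heads. The smallest of the pum kd sums lay just above the highest control sum. The 3 genes with the largest log2 fold changes, Hsp26, Hsp23 and Hsp27, together had 74.0, 115 and 96.5 CPM in control and 609, 219 and 326 CPM in pum kd heads, a ratio of means of 4.04. The other 3 genes together had 165, 298 and 221 CPM and 387, 229 and 271 CPM, with a ratio of means of 1.29 and groups that overlapped. Since the genes were divided by the size of their difference, the gap between these ratios follows from the division and is a description.

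The make-up of this RNA is given by the share of each gene in the sum. The share of l(2)efl was 56.9% ± 5.70 in control and 35.5% ± 3.48 in pum kd heads (SD, n = 3 each). The share of Hsp26 was 13.0% ± 1.21 and 30.8% ± 4.51, and that of Hsp23 14.1% ± 1.05 and 21.2% ± 1.52 (SD, n = 3 each). These 3 shares did not overlap between the genotypes, and shares of a whole are not independent of each other. The ratio of the CPM of Hsp26 to that of Hsp23 within a library was 0.776, 0.955 and 1.05 in control heads and 1.58, 1.36 and 1.41 in pum kd heads. Per kilobase of exon, Hsp26 was above Hsp23 in every pum kd library and below it in every control library.

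**Figure D3:**
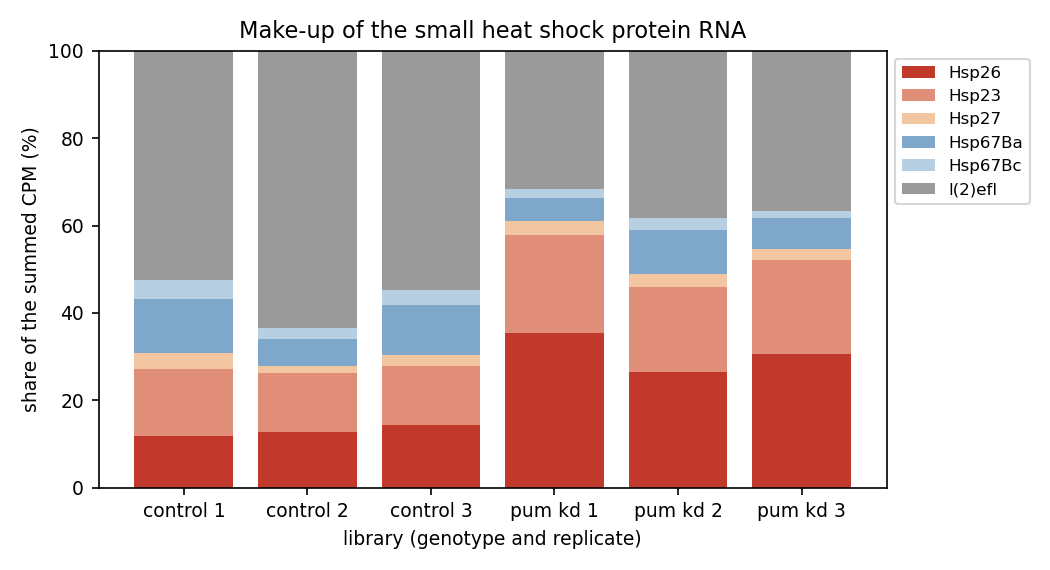
Share of the summed CPM of the 6 genes with counts that each gene held, by library. The grey part, l(2)efl, holds 52.6% to 63.3% in the control libraries and 31.6% to 38.3% in the pum kd libraries, and the dark red part, Hsp26, holds 11.9% to 14.3% and 26.4% to 35.4%.

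Levels of different genes were compared as CPM per kilobase of exon. In control heads the order of the means was l(2)efl (253), Hsp23 (51.2), Hsp26 (42.0), Hsp67Ba (17.5), Hsp67Bc (11.0) and Hsp27 (4.64 CPM per kilobase). The libraries of Hsp23 and Hsp26 overlapped, and the other neighbours in this order were separate. In pum kd heads l(2)efl, at 317, was followed by Hsp26 at 216 and Hsp23 at 166 CPM per kilobase. The ranges of these 3 genes overlapped from neighbour to neighbour. Hsp67Ba (26.8) stayed separate below them, and Hsp67Bc (14.4) and Hsp27 (12.4 CPM per kilobase) overlapped.

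Within the 67B cluster the difference was not shared by every gene. CG4461, another gene with an alpha-crystallin domain, begins 465 bases after Hsp22 and ends 124 bases before Hsp26. Its levels were 79.0, 96.2 and 76.2 CPM in control heads and 86.7, 72.3 and 68.9 CPM in pum kd heads. The groups overlapped, and CG4461 was not called (log2 fold change -0.14, standard error 0.17, adjusted p = 0.993 by edgeR with Benjamini-Hochberg adjustment). The ratio of Hsp26 to CG4461 within a library was 0.361, 0.552 and 0.597 in control heads and 4.07, 1.64 and 2.64 in pum kd heads. Of the 10 neighbours within 10 kilobases of the outermost members, 7 were tested and 0 were called by edgeR's test, with 0 at an unadjusted p under 0.05 and with no neighbour above the control range in every pum kd library. Their log2 fold changes lay between -0.27 and 0.44, with a median of 0.02.

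**Figure D4:**
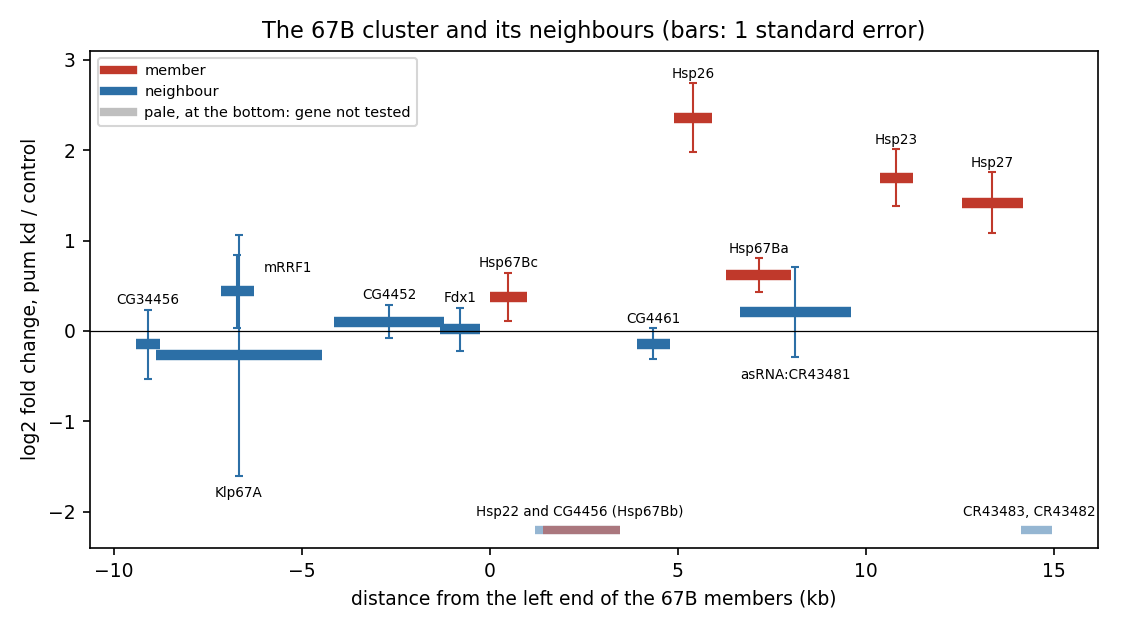
Log2 fold change, pum kd over control, against distance in kilobases from the left end of the 67B members, with each gene drawn over its span and a bar of 1 standard error. Members are red and neighbours blue, and pale genes at the bottom were not tested, at 0 counts. Hsp26 at 2.36 stands beside CG4461 at -0.14 and Hsp67Ba at 0.62.

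Apart from CG4461, the list of further alpha-crystallin genes held CG7409, CG14207 and CG13133, and 0 of the 4 were called by edgeR, with 1, CG13133, at an unadjusted p under 0.05. This gene was near the lower limit of what could be measured, at 0.483, 0.742 and 1.29 CPM in control heads and 5.52, 1.65 and 3.42 CPM in pum kd heads. Its groups did not overlap, with pum kd replicate 1 again the highest, and it was not called (log2 fold change 2.07, standard error 0.70, adjusted p = 0.677 by edgeR). CG7409 had a log2 fold change of -0.03 and CG14207 of 0.16, and both overlapped between the genotypes. The median over the 4 genes was 0.06.

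Small heat shock proteins hand their clients to the Hsp70 system, and Hsf controls both. In a list of 20 genes made of Hsf, the Hsp70 and Hsp90 chaperones, their co-chaperones, the autophagy receptor gene ref(2)P and the heat-inducible noncoding RNA lncRNA:Hsromega, 19 had a positive log2 fold change, with a median of 0.62. Of these 20, 6 were called higher by edgeR, where 0.0841% of all genes tested were. In 14 the pum kd libraries were all above the control libraries (5.36% of all genes tested). The 6 were Hsp68, Hsp83, Hsp70Ab, Hsp70Ba, Hsp70Bb and Hsp70Bc, with log2 fold changes of 1.39 to 3.01. Reads that fit more than 1 of the near-identical Hsp70 copies may be left out of the counts or split among the copies. The values of single copies are therefore uncertain. Hsp68, a stress-inducible Hsp70 relative, was at 34.2, 33.6 and 32.9 CPM in control and 197, 82.5 and 125 CPM in pum kd heads. Its pum kd libraries stood in the same order as those of Hsp26 and Hsp23, while its control libraries were nearly level (log2 fold change 2.00, standard error 0.28, adjusted p = 0.0297 by edgeR with Benjamini-Hochberg adjustment). Without control replicate 3 edgeR called 0 of the 6, and only 1 gene of 11117 tested was called at all. It called 3 of them without pum kd replicate 3, where 12 genes of 11101 tested were called. Without pum kd replicate 1 or 2 it called 4 of them, among 8 and 7 genes in all. It called 5 without control replicate 1 (12 genes in all) and all 6 without control replicate 2 (30 genes in all).

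The RNA of Hsf itself, the factor that binds heat shock elements in these promoters, was at 75.9, 73.6 and 69.3 CPM in control and 61.0, 65.6 and 84.9 CPM in pum kd heads. These groups overlapped, and Hsf was not called (log2 fold change -0.05, standard error 0.17, adjusted p = 0.995 by edgeR). Its activity is set largely after translation, which RNA counts do not measure.

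Other inputs known for members were read from short lists. Of 7 genes of the FOXO and JNK pathways, which feed into l(2)efl, 0 were called by edgeR and 0 had an unadjusted p under 0.05, with a median log2 fold change of -0.14. Thor, a translation inhibitor and FOXO target named here after its values were seen, was at 151, 378 and 257 CPM in control and 356, 204 and 257 CPM in pum kd heads. As with l(2)efl, control replicate 1 was the lowest library, and control replicate 2 and pum kd replicate 1 were the highest pair. InR, of the same list and also named after its values were seen, ran the other way. Its highest library was control replicate 1 (129 CPM), and its lowest were control replicate 2 (47.0 CPM) and pum kd replicate 1 (66.9 CPM). The exons of Thor span 755 bases, those of l(2)efl 741 bases and those of InR 11367 bases. Within this list Thor is the shortest gene and InR the longest. The extremes of InR were also those of the long genes Eip75B, norpA and pum, named after their values were seen. Whether FOXO or gene length had a part in the levels of l(2)efl was not tested. The ecdysone hormone pathway induces small heat shock genes in development. Its list held 6 genes, the receptor genes EcR and usp and the response genes Eip74EF, Eip75B, Eip78C and ftz-f1. Of these, 0 were called by edgeR. An unadjusted p under 0.05 was seen in 1, Eip78C (log2 fold change -0.62), picked out after its values were seen. The median log2 fold change of the list was -0.24. The exons of usp span 3038 bases and those of the others 5878 to 13451 bases. Of all genes of 4000 bases or more, 17.7% were higher in pum kd heads, with a median log2 fold change of -0.16. Whether length had a part in the values of this list was not tested.

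The genes whose pattern over the 6 libraries was most like the mean log2 CPM of the 6 members were sought among 9501 other genes. The 10 most alike, with Pearson's r from 0.977 to 0.989, were CCT3, CG32533, blow, GAPsec, CG11200, CG8149, asRNA:CR43468, CCT8, CG12926 and CCT5. CCT3, CCT5 and CCT8 encode subunits of the cytosolic chaperonin. After the mean of each genotype was taken away, the 5 most alike were sip1, GAPsec, eca, Obp56h and CG8478, with r from 0.990 to 0.994. With 3 libraries of each genotype, such values describe these 6 libraries, where points of a genotype share that genotype and each library has a depth of its own, and they come from the top of a long list.

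Markers of the cell types of the head were read beside these differences. All 7 muscle markers and all 5 neuronal markers had a negative log2 fold change and all 5 glial markers a positive one, and 0 of these 17 were called by edgeR. At an unadjusted p under 0.05 there were 2, the astrocyte gene alrm (log2 fold change 0.95, adjusted p = 0.0699 by edgeR) and the flight muscle actin gene Act88F (-0.98, adjusted p = 0.834), both named after their values were seen. The neuronal markers have exons of 4072 to 22801 bases. Of all genes of 4000 bases or more, 17.7% were higher in pum kd heads. The direction of the neuronal markers was thus that of most genes of their length. The glial markers have exons of 1717 to 3939 bases and the muscle markers of 849 to 28019 bases. Of genes from 2000 up to 4000 bases, 43.9% were higher in pum kd heads. Summed neuronal markers spanned 3086 to 5272 CPM in control and 3131 to 4248 CPM in pum kd heads, summed muscle markers 3752 to 5175 and 3918 to 4300 CPM, and summed glial markers 1091 to 1167 and 1153 to 1436 CPM. The summed neuronal level was highest in control replicate 1, where l(2)efl was lowest. It was lowest in control replicate 2 and pum kd replicate 1, where l(2)efl was highest. These extremes were not particular to the neuronal list. They were also seen in Eip75B, norpA and pum, with exons of 13451, 8296 and 11798 bases, and not in ninaE or trp, all named after their values were seen. Of the 5 fat body markers, 4 had a positive log2 fold change, with a median of 0.34, and 0 were called by edgeR. Mtp, which loads lipid onto lipoproteins and is named after its values were seen, was above the control range in every pum kd library and had an unadjusted p under 0.05 (log2 fold change 0.40, adjusted p = 0.886 by edgeR). The median was -0.04 over the 5 photoreceptor markers and -0.04 over the 4 hemocyte markers, with 0 called by edgeR and 0 at an unadjusted p under 0.05 in either list. The sums of these 3 lists overlapped between the genotypes, and the testis and accessory gland markers reached at most 2.16 and 0.361 CPM when summed. Genes with exons under 1000 bases had a median log2 fold change of 0.09 and those of 4000 bases or more of -0.16, and the 6 members have exons of 741 to 1733 bases. When exon length was corrected for, an alternative added after the data were seen, the median of the members was 0.93. The log2 fold changes were then 2.22 (Hsp26), 1.52 (Hsp23), 1.31 (Hsp27), 0.54 (Hsp67Ba), 0.22 (Hsp67Bc) and 0.17 (l(2)efl). Each was lower than without the correction. The part of cell make-up in the members' values was not tested.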

How the data were processed

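The members and gene lists were chosen with earlier results of these data known. Per the labels and the study's methods, poly-A stranded libraries were read with FastQC 0.12.1, trimmed with Trimmomatic 0.39 and aligned to dm6 with STAR 2.7.11b. The strand setting and annotation of the counting are not given in the sources used here. The authors deposited whole-number counts per gene without normalization. In a second table the authors deposited a normalized signal (ComBat-seq counts divided by DESeq2 size factors). It also holds the authors' log2 fold changes, a Wald score and p-values, which were not used.

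Rows naming no gene (11.5% to 14.2% of a library) were left out. Of 17807 genes, 17710 matched the Ensembl annotation, which gave positions and exon lengths. The test across all genes was edgeR's (version 4.0.16, R 4.3.3) quasi-likelihood F test after filterByExpr and TMM scaling, and p-values were adjusted by Benjamini-Hochberg. Log2 CPM used a prior count of 2. DESeq2 1.42.0, limma 3.58.1 and sva 3.50.0 served for alternatives. With the division of libraries named above, ComBat-seq gave back 100% of the authors' normalized values (relative tolerance 1e-06). The fits were tested on simulated data. No library pair of a genotype agreed within sampling noise (the lowest chi-square, divided by its degrees of freedom, was 45.8).

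All members, all further alpha-crystallin genes, called genes of each other list, stv and Hsf are named by rule. Sequences of promoters and proteins were not analysed here, nor was the marker esg.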

Additional observations from a re-analysis of the deposited data

How the results depend on the processing

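No member changed direction under any of the 14 alternatives. The number of all genes called (11 of 10696 tested) was 64 of 10696 with DESeq2 and 73 of 13234 without a filter. It was 40 of 10380 with limma on the authors' normalized values (pseudocount 1) and 21 of 10642 with a correction for gene length. The last pair was chosen after the data were seen. The number of members called (0) was 3 with DESeq2 and 3 without a filter (Hsp23, Hsp26 and Hsp27 in both), and 2 with limma and 2 with the length correction (Hsp23 and Hsp26 in both). With 1 library left out, calls over all genes numbered between 1 of 11117 tested (without control replicate 3) and 30 of 11142 (control replicate 2 left out). They were 7 of 11124 without pum kd replicate 2. Among members calls ranged from 0 to 2 (2 without control replicate 2). Among heat shock partners and further alpha-crystallin genes they ranged from 0 (control replicate 3 left out) to 8 (control replicate 2 left out). Without pum kd replicate 3 there were 3 among these, where 12 of 11101 genes tested were called. The members' median log2 fold change ranged from 0.75 (without pum kd replicate 1) to 1.17 (without pum kd replicate 2). The cause was not tested.

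Replicate numbers did not pair the libraries (correlations of deviations -0.09, -0.02 and 0.01). With a replicate block edgeR called 14 of 10696 genes tested and 0 members, the median was 0.97 and 6 partners were called. With the batch term, added after the data were seen, these were 10, 0, 1.05 and 6. A planned fit on whole reads recovered from the normalized values was not run, since 2 libraries gave no clear read steps, and limma took its place. Counts per member and library were 225 to 11767. The coefficient of variation of a member within a genotype ran from 5.62% (Hsp67Bc, control) to 55.8% (Hsp26, pum kd). How much of it was counting error was not tested for single members.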
